A study of Mus musculus with 12 samples.

Results

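The 10 ETS transcription factor genes described here were Spi1, Spib, Fli1, Erg, Ets1, Ets2, Elf1, Etv6, Gabpa and Elk3. They were chosen by name from the 35527 genes that had a quantified transcript. The choice used no measured value as a rule, but earlier results of these data were known when it was made. Their estimated read counts were summed per gene, and were also kept apart per transcript for Spi1, Erg and Ets1, in 12 RNA-seq libraries of FACS-sorted mouse bone marrow cells with the surface phenotype Flk2- Lin-Sca-1+Kit+, a compartment of blood stem and early progenitor cells. The 4 genotypes had 3 libraries each. The genotypes were Wild-type, with neither change, Mdmx-Tg with an Mdmx transgene, Pu.1-URE-/- without the upstream regulatory element (URE) of Spi1 on either allele, and Mdmx-Tg/Pu.1-URE-/- with both changes, called the double mutant below. Pu.1-URE-/- and the double mutant together are called the libraries without the element, and Wild-type and Mdmx-Tg those with it. The promoter of the transgene, the strain, the age and the sex of the mice are not given in the sources used here, and no treatment was labelled.

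ETS factors share a DNA-binding domain, the ETS domain, that recognises sites around a GGAA core, and members differ in flanking bases, partners and cell type. PU.1, the product of Spi1, drives myeloid and B-lymphoid development in a dose-dependent way, and its upstream element raises Spi1 transcription in stem and myeloid cells. ERG and FLI1 maintain stem cells and megakaryocytes, ETS1 acts mostly in lymphoid cells, GABPA binds promoters of housekeeping genes, ELF1 acts in blood and endothelial cells, and ETV6 and ELK3 are mainly repressors.

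Each library held 47231546 to 55030263 estimated reads on annotated genes. Libraries of a genotype correlated at 0.848 to 0.912 (Pearson r of log2 values), and edgeR estimated a biological coefficient of variation of 0.796. Levels are given as CPM, the reads of a gene scaled to the size of its library. The genes of the sorting markers were present in every library. Kit was at 270.2 to 328 CPM with the element and 165 to 261 CPM without it, Flt3 (the gene of Flk2) at 5.82 to 22.2 and 10.8 to 53.7 CPM, and Ly6a (Sca-1) at no more than 97.2 CPM. Kit fell and Flt3 rose with element loss (edgeR adjusted p = 0.0482 and 0.033), calls that held in 10 and 11 of 22 alternatives. The summed level of 16 granulocyte markers was 851 to 2510 CPM with the element and 34140 to 147210 CPM without it, and 14 of the 14 that could be tested rose with element loss, where 11.9% of all genes were called. Of the markers tested for other cells, 2 of 10 for monocytes and macrophages rose, and 1 of 8 for mature B and plasma cells fell. Of 14 stem cell and sorting markers 2 rose and 4 fell. For erythroid cells 0 of 11 were called, with 10 below 0, 1 above and a median log2 change of -1.39. Their summed level was 640.1 to 3156 CPM with the element and 93.04 to 1241 CPM without it. Summed monocyte and macrophage markers were at 79.5 to 505 CPM with the element and 794 to 3328 CPM without it, with 6 above 0 and 4 below. The 2 of them that rose at the threshold were Vcam1 and Ly6c2. In Pu.1-URE-/- against Wild-type 4 of these markers were above 0 and 6 below (median log2 change -1.39). In the double mutant against Mdmx-Tg 6 were above and 4 below (1.39). Summed mature B cell and plasma cell markers were highest in Wild-type 1 (25886 CPM) and lowest in Wild-type 3 (531 CPM). For element loss 7 of the 8 tested were below 0 and 1 above, with a median log2 change of -2.60. Immunoglobulin genes took 0.427% to 31.2% of reads with the element, highest in Wild-type 1, and 0.131% to 4.13% without it. Y-linked genes were high in 3 libraries, Wild-type 2 and the double-mutant libraries 1 and 3, so male and female mice were spread unevenly. The part of these differences in any result below was not tested beyond the values given, and in bulk RNA fewer cells of a type and less RNA per cell cannot be told apart.

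On the authors' TPM scale, which corrects for transcript length, Elf1, Fli1 and Etv6 were the most abundant of the 10 ETS genes. Their median levels over the 12 libraries were 36.9, 36.7 and 20.3 TPM. Gabpa followed with a median level of 10.7 TPM, then Elk3 (9.17), Erg (6.74), Ets1 (5.58), Spi1 (5.30), Ets2 (4.18) and Spib (0.00224 TPM). Elf1 was above Fli1 in 7 of 12 libraries, Erg was above Ets1 in 7 and Ets1 was above Spi1 in 6, so these neighbours in the order did not separate beyond the spread between libraries. Etv6 was above Gabpa in 12 of 12 libraries. Elf1 ranked first in 7 libraries, Fli1 in 4 and Spi1 in 1. As a ratio of highest to lowest level, Spi1 and Ets1 varied most among the 9 genes with more than a trace of reads. Spi1 ran from 0.0111 to 27.7 TPM and Ets1 from 0.667 to 43.2 TPM. Spi1 held ranks from 1 to 9 among the 10 genes, and Ets1 from 2 to 9.

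**Figure D1:**
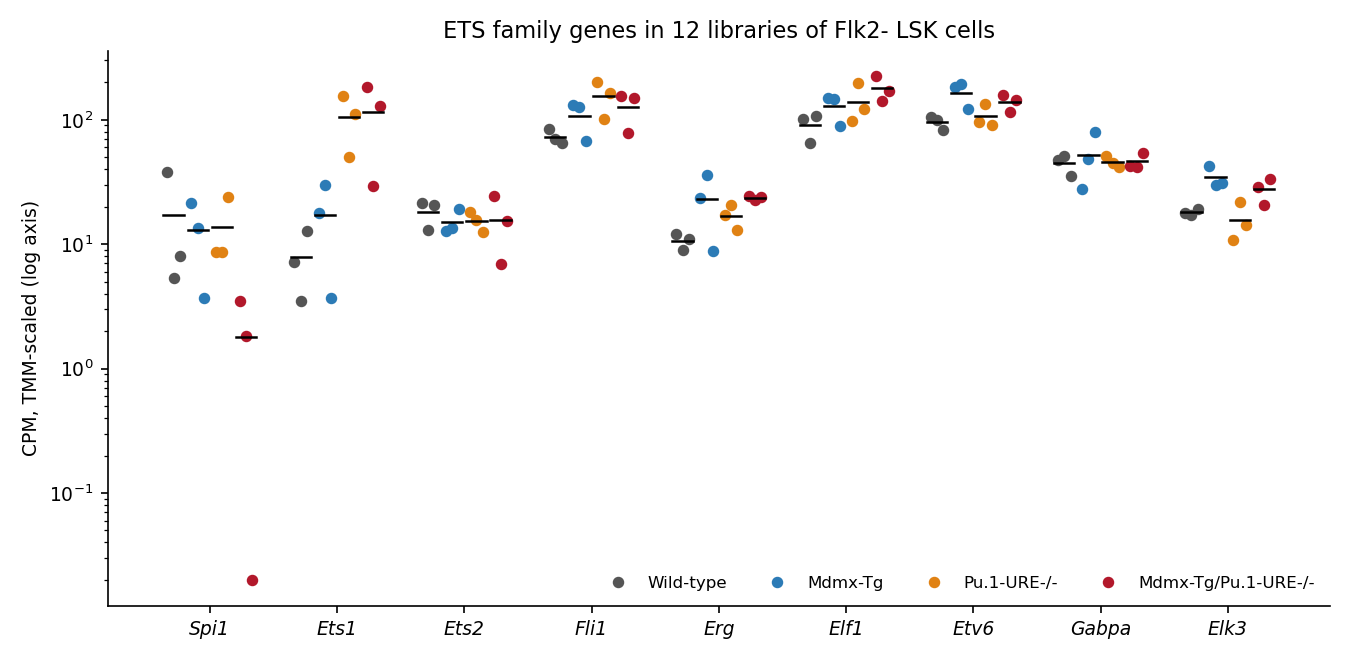
Level of 9 ETS genes in each of the 12 libraries (points, coloured by genotype; the horizontal bar is the mean of 3 libraries), as TMM-scaled CPM on a log axis. Ets1 lies between 29.3 and 185 CPM in the 6 libraries without the Spi1 element and between 3.50 and 29.8 CPM in the others, and Spi1 is lowest in the double mutant; Spib (at most 0.0591 CPM) is not drawn.

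Comparisons between genotypes used CPM scaled by TMM factors and edgeR's quasi-likelihood test over all 15012 genes that passed a filter on low counts, with a Benjamini-Hochberg adjusted p below 0.05 as the threshold. Of the 10 ETS genes 9 passed the filter, and Spib did not. Ets1 alone was called. It rose in Pu.1-URE-/- against Wild-type, where 4.71% of all genes were called, in the double mutant against Wild-type (3.34% of all genes), and in the comparison of the 6 libraries without the element against the 6 with it, averaged over both transgene states (11.9% of all genes). That average is called element loss below. Statements below that groups of libraries did not overlap are descriptions. The share of all genes that separated in this way was not counted.

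No ETS gene passed in the other comparisons. In Mdmx-Tg against Wild-type 0% of all genes were called by edgeR. An unadjusted p below 0.05 was reached by 3 ETS genes (Elk3, Etv6 and Erg) and by 10.5% of all genes. DESeq2 called Etv6, where it called 2.2% of all genes, and limma-voom called none. In the double mutant against Mdmx-Tg 2.32% of all genes were called by edgeR. Spi1 and Ets1 had an unadjusted p below 0.05, as had 16.9% of all genes. DESeq2 called Ets1 (8.63% of all genes) and limma-voom no ETS gene (2.21%). In the double mutant against Pu.1-URE-/- 0% were called by edgeR. Spi1 and Elk3 had an unadjusted p below 0.05, as had 10.7% of all genes. Neither other tool called an ETS gene, where DESeq2 called 2.19% and limma-voom 0% of all genes. The interaction of transgene and element loss tests whether the effect of one depends on the other. For it 0% were called by edgeR, and neither other tool called an ETS gene (DESeq2 called 1.29% and limma-voom 0% of all genes). An unadjusted p below 0.05 was reached by 0 ETS genes and by 5.8% of all genes. Where Ets1 was called, 2 ETS genes reached it in Pu.1-URE-/- against Wild-type (19.8% of all genes). In the double mutant against Wild-type 6 of the 9 did (18.5%), and for element loss 3 did (26.9%). The median log2 change of the 9 genes was 0.56 in Mdmx-Tg against Wild-type, 0.17 in Pu.1-URE-/- against Wild-type and -0.04 for element loss, beside 0.00, -0.03 and -0.00 over all genes.

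**Figure D2:**
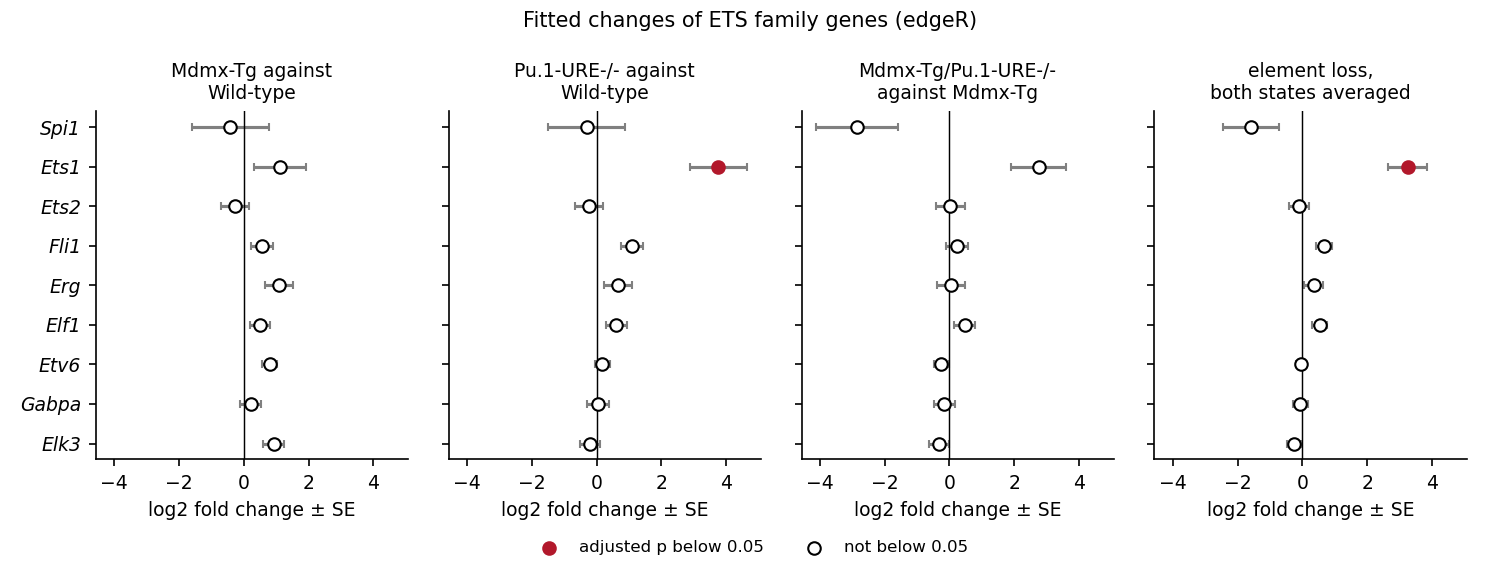
Fitted log2 fold change (points) with its standard error (bars) for 9 ETS genes in 4 comparisons, over 12 libraries. Filled points have an adjusted p below 0.05: Ets1 in Pu.1-URE-/- against Wild-type (3.75) and for element loss (3.25); the open points did not pass.

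Spi1 lies on chromosome 2 from 91082390 to 91115756 on the plus strand (GRCm38, GENCODE M21). Wild-type 1, 2 and 3 held 37.98, 5.34 and 8.08 CPM of Spi1 RNA. Mdmx-Tg 1, 2 and 3 held 21.6, 13.5 and 3.69 CPM. The 3 Pu.1-URE-/- libraries had Spi1 levels of 8.73, 8.73 and 23.9 CPM, and the 3 double-mutant libraries had levels of 3.48, 1.84 and 0.0198 CPM, the last from 1 read. The double mutant thus lay below the other 9 libraries, by a narrow margin over Mdmx-Tg 3, while Pu.1-URE-/- overlapped Wild-type over most of its range. The means were 17.1 ± 18.1, 12.9 ± 8.97, 13.8 ± 8.74 and 1.78 ± 1.73 CPM (SD, n = 3 each), so in Wild-type the spread was as large as the mean.

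The fall of Spi1 in the double mutant did not pass the test. Its log2 change was -3.27 ± 1.29 (SE) against Wild-type (edgeR adjusted p = 0.209), -2.86 ± 1.27 against Mdmx-Tg (0.285) and -2.95 ± 1.28 against Pu.1-URE-/- (0.453). DESeq2 gave -3.34 and an adjusted p of 0.0269 for the first of these. The 3 comparisons share the double-mutant libraries. For element loss the change was -1.59 ± 0.86 (adjusted p = 0.27). The standard errors near 1 log2 unit mean that a change of a few fold in Spi1 was not detectable with these libraries.

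The annotation gives Spi1 4 transcripts, and the first-to-second exon junctions of 3 of them are shown because they tell these transcripts apart. In each, 30 bases of the first exon are in lower case and 30 bases of the second exon in capitals, read 5′ to 3′ from GENCODE M21 transcripts. Spi1-201 is the main coding transcript, Spi1-202 is a 2-exon transcript that ends before Spi1-201 begins, and Spi1-204 joins the same upstream first exon to the second exon of Spi1-201.
Spi1-201: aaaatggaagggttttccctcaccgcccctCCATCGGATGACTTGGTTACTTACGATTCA
Spi1-202: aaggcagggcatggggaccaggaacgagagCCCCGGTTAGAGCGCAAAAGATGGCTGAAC
Spi1-204: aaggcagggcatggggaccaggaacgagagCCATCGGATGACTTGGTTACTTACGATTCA
Spi1-202 and Spi1-204 share their first-exon bases, and Spi1-201 and Spi1-204 share their second-exon bases. The first exon of Spi1-202 (chr2:91082408-91082523) starts 13688 bases upstream of Spi1-201. The limits of the deleted element are not given in the sources used here, so whether this exon lies within the deletion was not tested.

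All 6 libraries carrying the element had reads of Spi1-202, and none of the others did. Wild-type 1, 2 and 3 had 55, 53 and 65.5 estimated reads of Spi1-202, and Mdmx-Tg 1, 2 and 3 had 213, 321 and 105. The 3 Pu.1-URE-/- libraries and the 3 double-mutant libraries had 0. Against a floor of 3 reads over the 6 libraries without the element, Spi1-202 was at least 275-fold lower there than in the 6 with it (813 reads in all), a bound that covers counting error only. In a fit over all 45740 transcripts that passed the filter, Spi1-202 and Ets1-201 fell and rose with element loss (edgeR adjusted p = 0.00518 and 0.0206), 2 of the 8 tested of the 18 transcripts of Spi1, Erg and Ets1, where 2.56% of all transcripts were called. In the double mutant against Mdmx-Tg Spi1-202 alone was called (adjusted p = 0.0468; 0.466% of all transcripts), and that call was lost when any 1 library was left out other than Pu.1-URE-/- 2. In Pu.1-URE-/- against Wild-type its adjusted p was 0.0509 and 0 of the 8 were called (0.894% of all transcripts).

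In the other transcript comparisons 0 of the 8 were called. The background was 0.0219% of all transcripts in Mdmx-Tg against Wild-type, 0% in the double mutant against Pu.1-URE-/-, 0.494% in the double mutant against Wild-type and 0.00219% for the interaction. An unadjusted p below 0.05 was reached there by 1, 0, 3 and 0 transcripts. DESeq2 called 0, 0, 2 and 0 of the 8, and 2 (Ets1-201 and Spi1-202) in Pu.1-URE-/- against Wild-type, where 2 had an unadjusted p below 0.05. Of the 45740 transcripts DESeq2 called 1657, 917, 2412 and 1257 in turn, and 2591 in Pu.1-URE-/- against Wild-type. The share of all transcripts with an unadjusted p below 0.05 is not given here. The unadjusted counts of the 8 thus have no background beside them and are descriptions.

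**Figure D3:**
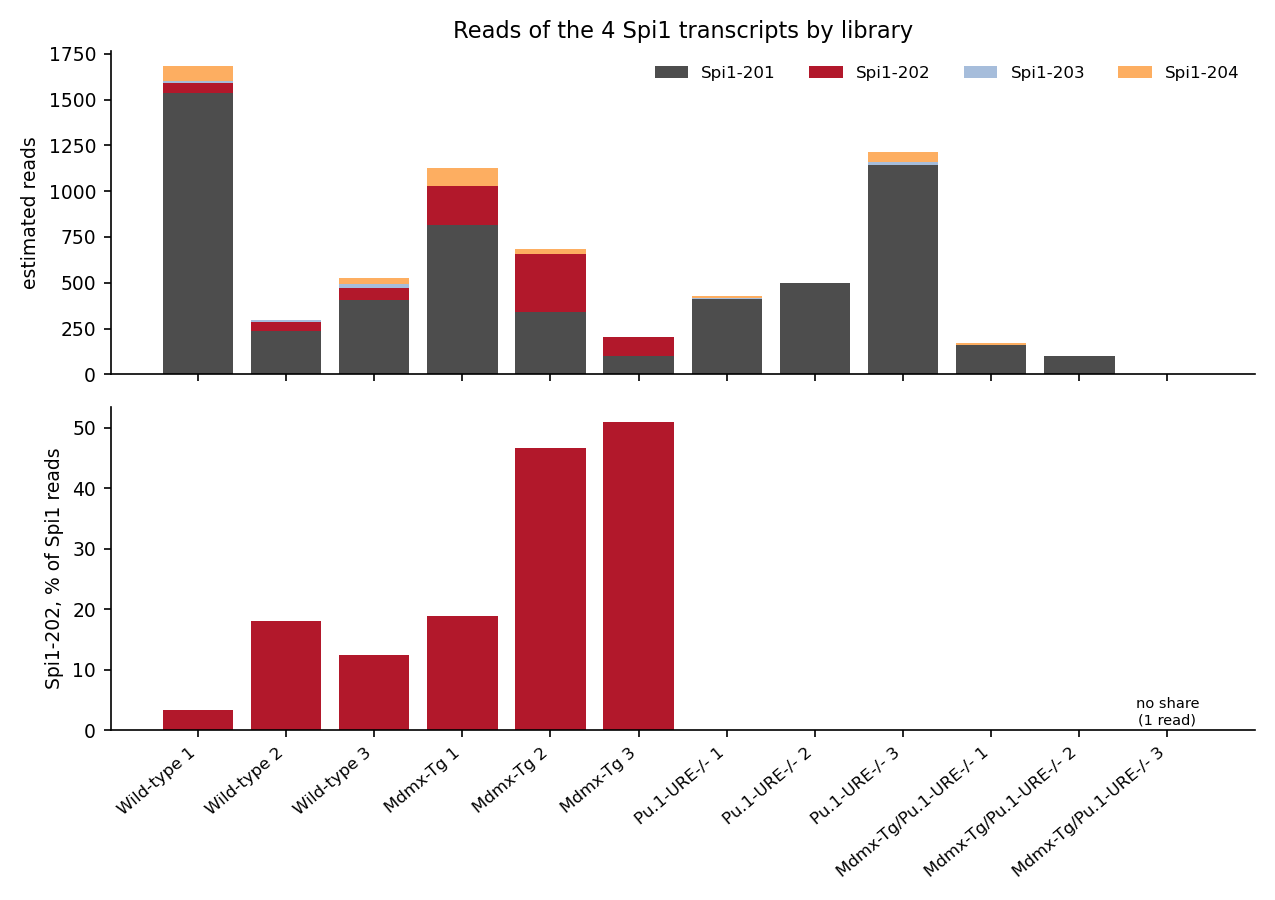
Estimated reads of the 4 Spi1 transcripts in each library (upper panel, stacked bars) and the percentage of Spi1 reads assigned to Spi1-202 (lower panel). Spi1-202 takes 3.27% to 50.97% where the element is present (6 libraries) and 0% where it is absent (5 libraries with enough reads for a share).

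The share of Spi1-202 among Spi1 reads is a ratio within the gene and free of library scaling. It was 3.27%, 18.03% and 12.4% in Wild-type 1, 2 and 3 and 18.9%, 46.7% and 50.97% in Mdmx-Tg 1, 2 and 3. It was 0% in Pu.1-URE-/- 1, 2 and 3 and in the first and second double-mutant libraries, and the third had under 10 Spi1 reads and was left out. The mean share was 25.05% ± 19.3 (SD, n = 6) with the element and 0% without it (n = 5), with no overlap (exact two-sided permutation test, p = 0.00649, 0.0162 adjusted over 5 transcripts). The share of Spi1-201 was 69.6% ± 17.5 with the element and 96.5% ± 3.82 without it, with the same p, since the shares of a gene add up to a whole. Taken from TPM, which counts a short transcript for more, the difference in the Spi1-202 share was 46.9 percentage points in place of 25.0. Without Pu.1-URE-/- 1, 2 or 3 the adjusted p was 0.0595, with only 4 libraries left on that side. Mdmx-Tg 2 and 3 had the highest shares and Wild-type 1 the lowest, and the transgene's effect on the share was not tested.

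The upstream first exon was also counted through Spi1-204. It had 81.9, 0 and 33.4 reads in Wild-type, 98.6, 27.8 and 2.38 in Mdmx-Tg, 9.68, 0 and 49.3 in Pu.1-URE-/- and 15.4, 0 and 0 in the double mutant. The groups overlapped, and reads assigned to Spi1-204 were present in 3 of the 6 libraries without the element. Only 44 of its 514 stretches of 31 bases occur in no other Spi1 transcript, against 495 of 583 for Spi1-202 and 1439 of 2004 for Spi1-201, so the count of Spi1-204 rests on few bases.

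The deleted element lies upstream of Spi1, and the genes beside it were therefore listed. Within 100 kb lie Celf1, Rapsn, Psmc3, Slc39a13, Mybpc3, Madd, Nr1h3, Acp2 and Ddb2. Rapsn, which encodes a scaffold of the neuromuscular junction, ends 36661 bases upstream of Spi1. Its level was 3.16, 0.599 and 5.61 CPM for the Wild-type libraries and 2.49, 0 and 1.49 CPM for Mdmx-Tg. For Pu.1-URE-/- it was 26.4, 23.6 and 28.3 CPM, and for the double mutant 24.9, 13.8 and 29.7 CPM. All 6 libraries without the element lay above all 6 with it. Rapsn rose by 3.58 ± 0.87 (log2, SE) with element loss (edgeR adjusted p = 0.0235). It kept that call in 15 of 22 alternatives, with adjusted p up to 0.0588, and lost it with Y-linked genes as a covariate and without any 1 of Wild-type 1 or 2, Mdmx-Tg 3, Pu.1-URE-/- 1 or 3, or double-mutant library 1. The other 8 neighbours did not pass for element loss, and Mybpc3 was not tested, with at most 1.02 CPM. For element loss 11.9% of all genes were called, so a single call among so few neighbours is close to that background. Psmc3, a proteasome subunit 16021 bases away, held 386 to 514 CPM in all libraries.

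Spib encodes SPI-B, the closest relative of PU.1, which acts in B cells and plasmacytoid dendritic cells. It had 8 reads over all 12 libraries and at most 0.0591 CPM (Pu.1-URE-/- 3). No comparison could be made at this depth.

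Ets1 lies on chromosome 9 (32636221 to 32757820, plus strand), and ETS1 supports T cell, NK cell and B cell differentiation. Wild-type 1, 2 and 3 held 7.25, 3.50 and 12.8 CPM of Ets1 RNA, and Mdmx-Tg 1, 2 and 3 held 17.8, 29.8 and 3.69 CPM. It was at 155, 50.2 and 112 CPM in Pu.1-URE-/- 1, 2 and 3 and at 185, 29.3 and 130.0 CPM in the double mutant. The libraries without the element were higher except for 1 pair, since Mdmx-Tg/Pu.1-URE-/- 2 (29.3 CPM) lay just under Mdmx-Tg 2 (29.8 CPM). Ets1 also varied widely among the libraries of each genotype. Wild-type averaged 7.86 ± 4.695 CPM, Mdmx-Tg 17.1 ± 13.1, Pu.1-URE-/- 106 ± 52.5 and the double mutant 115 ± 78.9 CPM (SD, n = 3 each).

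With element loss Ets1 rose 9.49-fold (log2 3.25 ± 0.61 SE, edgeR adjusted p = 0.00621), and it was called in all 22 alternatives to this fit, with adjusted p up to 0.0388. Against Wild-type it rose 13.4-fold in Pu.1-URE-/- (log2 3.75 ± 0.88, adjusted p = 0.0343) and 14.6-fold in the double mutant (log2 3.87 ± 0.88, adjusted p = 0.0393); these comparisons share the Wild-type libraries. Both calls were weak. The first was lost without any 1 of Wild-type 1, 2 or 3, Mdmx-Tg 1, Pu.1-URE-/- 1 or 3, or Mdmx-Tg/Pu.1-URE-/- 3 (adjusted p up to 0.142). The second was lost without any 1 library other than Mdmx-Tg 2, Mdmx-Tg 3 or Mdmx-Tg/Pu.1-URE-/- 2 (up to 0.146). The change in the double mutant against Mdmx-Tg was 2.75 ± 0.84 (adjusted p = 0.135; DESeq2 0.00374). In Mdmx-Tg against Wild-type it was 1.12 ± 0.80 (adjusted p = 0.675), and the interaction was -1.0 ± 1.11 (adjusted p = 1.0).

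Nearly all Ets1 reads belonged to 1 transcript. Ets1-201, the full-length coding form, took 99.5% to 100.0% of the reads of Ets1 in every library. The Ets1 reads ran from 193 in Wild-type 2 to 9203 in Mdmx-Tg/Pu.1-URE-/- 1, so the change in the gene was a change in this transcript.

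Markers of T cells and NK cells, in which ETS1 acts, moved both ways with element loss. The summed T cell and NK cell markers were at 112 to 322 CPM with the element and 1585 to 3968 CPM without it. Nkg7, which granule-bearing cells of several lineages make, held most of that sum, with 92.4 to 311 CPM with the element and 1536 to 3942 CPM without it. Of the 12 markers 8 were tested, with a median log2 change of 0.85; 5 were above 0 and 3 below. Nkg7 rose and Ncr1, an NK cell receptor, fell (edgeR adjusted p = 4.19e-05 and 0.0357), the latter in 9 of 22 alternatives. Lck, a kinase of T cells, was at 2.45 to 15.9 CPM with the element and 14.8 to 35.1 CPM without it (log2 1.32 ± 0.41, adjusted p = 0.0587). The T cell gene Cd3d was at 0 to 2.06 CPM and 0.0930 to 1.51 CPM (3.25 ± 1.28, 0.128), and Klrb1c, an NK cell receptor, at 0.0392 to 5.89 CPM and 2.25 to 9.23 CPM (1.38 ± 0.82, 0.32). Trac had no read in any library, and Cd3e reached 0.450 CPM in Pu.1-URE-/- 1 and was at 0 in the others. Lck, Cd3d, Klrb1c, Trac and Cd3e were named after their values were seen. Lck, Cd3d and Klrb1c all had a positive change, so they do not stand for the list, in which 3 of the 8 tested were below 0. Granulocyte markers were higher without the element by the sums given above. Their part in the Ets1 difference was not tested.

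The genes whose levels were most like Ets1 were Sept1 (Pearson r = 0.970 over 12 libraries), Myh9 (0.964), Sptan1 (0.963), Smim19 (0.962) and Gnai3 (0.954), the top 5 of 9363 protein-coding genes compared on log2 CPM. Their r on deviations from the genotype means was 0.834 to 0.893, and their log2 change with element loss was 0.94 to 1.45. Both follow in large part from choosing the genes by r over libraries in which Ets1 differs with the element, and are a description.

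Fli1 lies 93360 bases from Ets1 on chromosome 9 (32422204 to 32542861, minus strand). FLI1 works in stem cells, megakaryocytes and endothelium. The Wild-type libraries held 84.8, 69.8 and 65.5 CPM of Fli1 RNA and the Mdmx-Tg libraries 131, 126 and 67.2 CPM. The Pu.1-URE-/- libraries held 202, 102 and 165 CPM and the double-mutant libraries 155, 78.98 and 149 CPM. All 3 Pu.1-URE-/- libraries lay above all 3 Wild-type libraries, and the double mutant overlapped Mdmx-Tg. The log2 change was 1.09 ± 0.34 in Pu.1-URE-/- against Wild-type (edgeR adjusted p = 0.103; DESeq2 0.0247). For element loss it was 0.67 ± 0.24 (adjusted p = 0.0994), and without Mdmx-Tg/Pu.1-URE-/- 2 it was 0.79 (0.0493).

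Fli1 and Ets1 were also compared across libraries, a relation looked at after the values were seen. Within the 6 libraries without the element Pearson r of log2 CPM was 0.935 (exact permutation p = 0.0278, 0.111 adjusted over the 4 relations examined) and Spearman rho 0.714 (exact p = 0.136, adjusted 0.544). Without the 2 libraries farthest from the median, Mdmx-Tg/Pu.1-URE-/- 2 and Pu.1-URE-/- 2, r was 0.105, so the relation rests on them. Within the 6 with the element r was 0.778 (exact permutation p = 0.1, adjusted 0.2; rho 0.543, exact p = 0.297, adjusted 0.594), and 0.037 without the 2 farthest. Erg and Ets2, 115482 bases apart on chromosome 16, gave r = -0.531 with the element (exact permutation p = 0.378, adjusted 0.504; rho -0.200, exact p = 0.714, adjusted 0.714) and 0.671 without the 2 farthest. In the libraries lacking the element r was 0.093 (exact permutation p = 0.711, adjusted 0.711; rho 0.314, exact p = 0.564, adjusted 0.714) and 0.245 without the 2 farthest.

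Erg lies on chromosome 16 (95359169 to 95586593, minus strand) and has several first exons. ERG is needed for stem cell self-renewal. RefSeq's table of promoter windows, on GRCm38.p6, held 7 of the 10 genes and not Spi1, Fli1 or Ets1. The windows at the start sites used by most Erg reads are shown, because the data divide Erg reads between them. Each runs from 250 bases before to 50 after a start site, on the minus strand, with GGAA or its reverse complement TTCC in capitals. The first is chr16:95459299-95459598 and the second chr16:95530316-95530615.
Erg near start: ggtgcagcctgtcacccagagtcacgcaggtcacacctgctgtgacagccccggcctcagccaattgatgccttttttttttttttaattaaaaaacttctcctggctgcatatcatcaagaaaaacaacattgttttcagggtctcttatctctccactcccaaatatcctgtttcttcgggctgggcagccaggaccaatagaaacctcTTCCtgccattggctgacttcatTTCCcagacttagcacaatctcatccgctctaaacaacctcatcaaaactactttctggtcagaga
Erg distant start: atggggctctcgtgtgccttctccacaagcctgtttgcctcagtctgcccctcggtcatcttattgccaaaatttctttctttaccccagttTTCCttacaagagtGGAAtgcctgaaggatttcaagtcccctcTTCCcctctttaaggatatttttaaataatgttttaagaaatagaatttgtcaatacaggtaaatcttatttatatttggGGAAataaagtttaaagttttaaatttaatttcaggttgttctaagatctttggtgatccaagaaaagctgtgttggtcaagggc
The first window holds 2 matches and the second 4, and neither holds GAGGAA or CCGGAA on either strand. Of 32851 such windows 96.0% hold GGAA, 28.3% GAGGAA and 14.9% CCGGAA on either strand, so the GGAA core is found in nearly any window of this length, and the longer motifs include it.

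Transcripts that begin between 95459245 and 95459348 took most Erg reads in 10 of 12 libraries. Their share was 72.9%, 23.4% and 100.0% in Wild-type 1, 2 and 3, 94.2%, 89.9% and 86.8% in Mdmx-Tg, 5.26%, 71.1% and 53.8% in Pu.1-URE-/-, and 79.6%, 83.2% and 92.5% in the double mutant. Wild-type 2 and Pu.1-URE-/- 1 were the exceptions, with 76.6% and 94.7% of reads from the start at 95530365. No read came from the start at 95586593. The main transcripts were Erg-207 from the near start and Erg-208 from the distant one. The share of Erg-208 was 21.8% ± 28.1 with the element and 35.7% ± 31.7 without it (SD, n = 6 each; exact permutation test, adjusted p = 0.442), and that of Erg-207 was 74.97% ± 28.3 and 59.6% ± 33.5 (0.442). Wild-type and Pu.1-URE-/- each spread over most of the range, while Mdmx-Tg and the double mutant were tighter. The near-start transcripts hold 157 stretches of 31 bases absent from those of the distant start, and the distant start 187 the other way. Set against all other starts, the near start has 130 stretches of its own and the distant start 4. Erg-208 has 4 of 3175 stretches that occur in no other Erg transcript, and Erg-207 has 0. The division between starts thus rests on a small part of the gene, and the shares of these single transcripts on less.

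**Figure D4:**
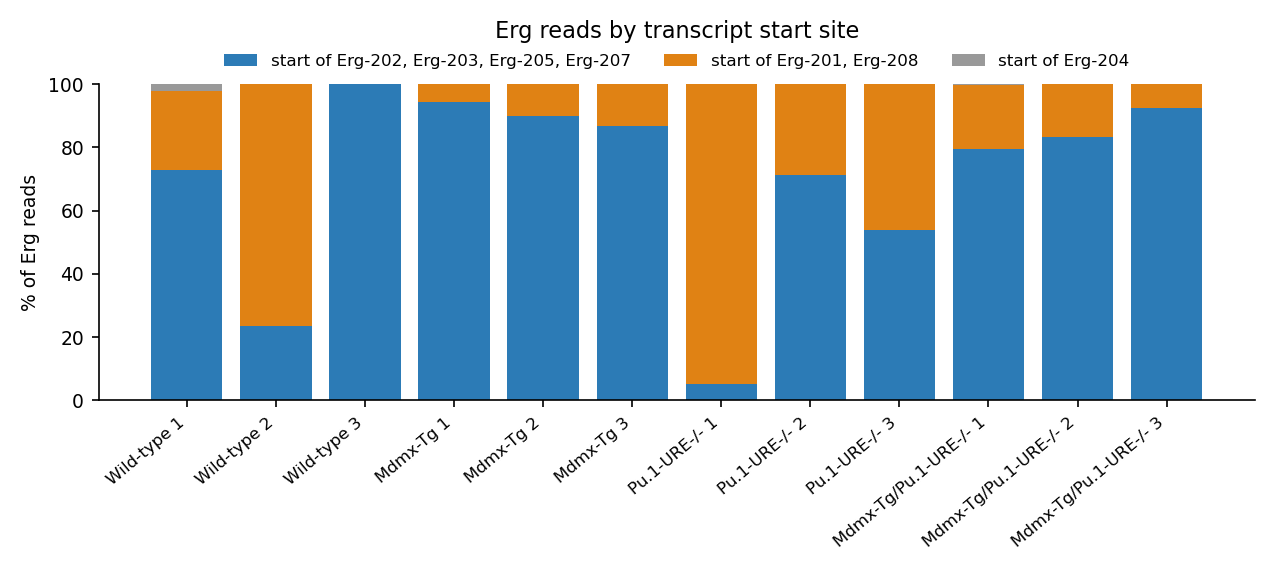
Percentage of Erg reads assigned to transcripts of each start site, stacked for the 12 libraries. The near start (blue) takes most reads in 10 libraries and 23.4% and 5.26% in Wild-type 2 and Pu.1-URE-/- 1.

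Summed over its transcripts, Erg was at 12.1, 9.001 and 10.97 CPM for the Wild-type libraries and at 23.6, 36.3 and 8.82 CPM for Mdmx-Tg. It was at 17.2, 20.6 and 12.9 CPM for Pu.1-URE-/- and at 24.3, 22.7 and 24.04 CPM for the double mutant. The 3 double-mutant libraries lay close together and above all Wild-type libraries, and Mdmx-Tg held both the lowest and the highest value of the 12 libraries. The log2 change in Mdmx-Tg against Wild-type was 1.10 ± 0.43 (edgeR adjusted p = 0.427). The 5 genes most like Erg were Grcc10 (r = 0.943 over 12 libraries), Mob4 (0.938), Erbin (0.933), Tmsb15b1 (0.920) and Abhd2 (0.918), with r of 0.845 to 0.893 on deviations from genotype means. None of these 5 passed for element loss (adjusted p of 0.261 or more).

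Ets2 is the other ETS gene of that stretch of chromosome 16 (95702075 to 95721051, plus strand), and ETS2 responds to growth factor signalling. Wild-type ranged from 12.9 to 21.4 CPM of Ets2 RNA and Mdmx-Tg from 12.8 to 19.2 CPM. Pu.1-URE-/- ranged from 12.5 to 18.1 CPM and the double mutant from 6.92 to 24.3 CPM, with overlap among all 4 genotypes. Its transcripts differed in 2 libraries. Ets2-205, an unspliced stretch at the end of the gene annotated as a retained intron, had 235 and 587 reads in Mdmx-Tg 1 and 2, which is 35.2% and 85.4% of Ets2 reads there. It had at most 4.47 reads in the other 10 libraries. Mdmx-Tg 3 had 0, so this was not shared by the genotype. Ets2-205 was named after its values were seen.

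Elf1, Etv6, Gabpa and Elk3 had no group below 10 CPM. Wild-type held 64.7 to 107 CPM of Elf1 RNA and Mdmx-Tg 89.4 to 151 CPM, while Pu.1-URE-/- held 97.9 to 199 CPM and the double mutant 142 to 225 CPM. All double-mutant libraries lay above all Wild-type libraries, at a log2 change of 0.97 ± 0.32 (edgeR adjusted p = 0.138; DESeq2 0.0482). For element loss the change of Elf1 was 0.54 ± 0.23 (adjusted p = 0.152).

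The Wild-type libraries held 105, 98.97 and 82.4 CPM of Etv6 RNA and the Mdmx-Tg libraries 183, 193 and 121 CPM. Those groups did not overlap, and the log2 change was 0.80 ± 0.23 (edgeR adjusted p = 0.367; DESeq2 0.0485). In Pu.1-URE-/- Etv6 was at 91.3 to 135 CPM and in the double mutant at 116 to 158 CPM, both overlapping the others. For Elk3 Wild-type ranged from 17.3 to 19.3 CPM and Mdmx-Tg from 29.9 to 42.5 CPM, and Pu.1-URE-/- ranged from 10.9 to 21.9 CPM and the double mutant from 20.8 to 33.2 CPM. The Elk3 change in Mdmx-Tg against Wild-type was 0.92 ± 0.31 (adjusted p = 0.4). Etv6 and Elk3 were therefore higher in each Mdmx-Tg library than in each Wild-type library, by a margin that did not pass the test over all genes. Gabpa averaged 44.7 ± 8.35, 51.7 ± 25.96, 45.96 ± 4.43 and 46.3 ± 7.15 CPM for Wild-type, Mdmx-Tg, Pu.1-URE-/- and the double mutant in turn (SD, n = 3 each), and its widest spread was in Mdmx-Tg, from 27.7 to 79.3 CPM.

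Of 16 other ETS family genes 4 (Elf3, Ehf, Fev and Spdef) had no read and 10 were tested. With element loss 1 of the 10 was higher and 0 lower at the threshold, where 11.9% of all genes were called. This was Etv4, an ETS factor of the PEA3 group, which had no read in the 6 libraries with the element and 0, 0.0528, 1.54, 1.19, 1.17 and 0.0198 CPM in the 6 without it (edgeR adjusted p = 0.0495). That call held in 3 of 21 alternatives and was lost when any 1 library was left out. No other ETS family gene of the list passed in any of the 7 comparisons.

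Partners of ETS factors changed with element loss in 4 of 27 cases, with a median log2 change of 0.29, where 11.9% of all genes were called; the count is close to that background. Gfi1, a repressor that directs granulocyte differentiation, was at 2.79 to 7.57 CPM with the element and 29.3 to 80.4 CPM without it (13.96-fold, adjusted p = 5.22e-05). Cebpa, whose product opens the granulocyte programme and partners PU.1 at many genes, was at 1.19 to 9.05 CPM and 12.4 to 41.1 CPM (7.64-fold, 0.000206). The groups did not overlap for either. Satb1, a chromatin organiser, rose 2.47-fold (adjusted p = 0.0313), and Gata2, a stem cell factor that antagonises PU.1, fell by 1.53 on the log2 scale (adjusted p = 0.0277). The calls of Gfi1 and Cebpa held in 22 of 22 alternatives, that of Gata2 in 14 and that of Satb1 in 11. With Wild-type 1, Mdmx-Tg 2 and double-mutant library 3 left out together, 2 partners rose and 0 fell.

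Known PU.1 target genes of myeloid and lymphoid cells moved both ways. Of the 34 tested of 36, 10 rose and 7 fell with element loss, with a median log2 change of -0.04, beside -0.00 over all genes and 11.9% of all genes called. Ncf1, a subunit of the phagocyte NADPH oxidase, was at 1.56 to 9.82 CPM with the element and 91.2 to 409 CPM without it (47.3-fold, edgeR adjusted p = 7.8e-05). Ncf4, of the same enzyme, rose 13.1-fold (8.96e-05), and Fcer1g, the shared signalling chain of Fc receptors, rose 6.74-fold (8.68e-05). Ptprc, which encodes the CD45 phosphatase of all white cells, was at 117 to 226 CPM with the element and 40.5 to 58.6 CPM without it, a fall of 3.39-fold (0.000186). Each of these 4 calls held in 22 of 22 alternatives. Their groups did not overlap, which is a description, since the share of all genes that separate so was not counted. The list's rises and falls ranged from 6 to 11 and from 3 to 9 over the alternatives, with 6 and 3 without Wild-type 1, Mdmx-Tg 2 and double-mutant library 3. Ncf1, Ncf4 and Fcer1g are also made by granulocytes, whose markers were higher in the same libraries, and the part of those cells in the rises was not tested. In Pu.1-URE-/- against Wild-type 9 of the 34 rose and 3 fell (4.71% of all genes called), in the double mutant against Wild-type 3 and 3 (3.34%), and in Mdmx-Tg against Wild-type 0 and 0 (0%).

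Target genes of ERG and FLI1 in stem cells and megakaryocytes were lower in most cases. Of the 23 tested of 24, 17 had a negative change with element loss, and the median log2 change was -0.69, beside -0.00 over all genes. At the threshold 2 rose and 5 fell, where 11.9% of all genes were called. Pecam1, an adhesion molecule of endothelium and leukocytes, was at 14.9 to 47.6 CPM with the element and 77.3 to 216 CPM without it (5.06-fold, edgeR adjusted p = 0.000267). Egfl7, an endothelial secreted factor, rose 1.74-fold (0.00803), a call lost without Wild-type 1, Mdmx-Tg 2 and double-mutant library 3 (0.0683). Tek, the angiopoietin receptor TIE2 of quiescent stem cells, was at 19.2 to 65.6 CPM with the element. Without it Tek was at 1.02, 0 and 5.13 CPM in Pu.1-URE-/- and 0, 0 and 0.0396 CPM in the double mutant (adjusted p = 0.00228). Mecom, the gene of the stem cell factor EVI1, fell by 1.61 on the log2 scale (0.00472) from 20.9 to 116 CPM with the element to 7.79 to 19.7 CPM without it. The groups of Pecam1, Tek and Mecom did not overlap. Falls numbered 2 to 8 over the alternatives and 4 without those 3 libraries. Of 10 megakaryocyte markers 3 fell and 0 rose for element loss, and their summed level was 85.6 to 205 CPM with the element and 18.3 to 79.1 CPM without it. All of these markers but Ppbp, Vwf and F2rl2 are also in the target list, so the lists overlap. The 3 markers that fell were Pf4, which is in both lists, and Ppbp and Vwf, which are not in the target list. Mecom also stands in the stem cell marker list. The part of those cell types in the falls was not tested.

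**Figure D5:**
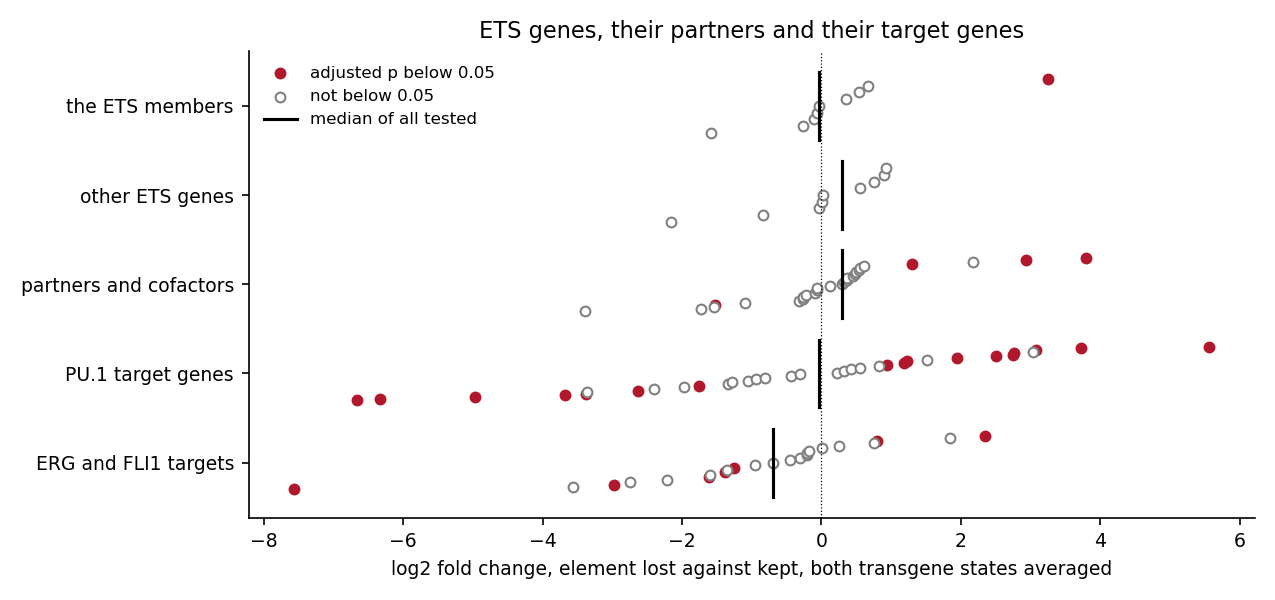
Fitted log2 fold change of each tested gene with loss of the Spi1 element, averaged over both transgene states, by gene list. Filled points have an adjusted p below 0.05 and black bars mark list medians (-0.04 for the PU.1 targets, -0.69 for the ERG and FLI1 targets); Etv4, with no read in one group, has no finite fold and is not drawn.

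The genes most like Spi1 over the 12 libraries were Lsp1 (r = 0.925), Snx25 (0.913), Pik3cd (0.910), Tnfsf13 (0.908) and Naa50 (0.895) of the same 9363 genes, with r of 0.755 to 0.929 on deviations from genotype means. Lsp1, an actin-binding protein of leukocytes, ran from 69.8 to 238 CPM with the element and from 0.317 to 159 CPM without it. None of these 5 passed for element loss (adjusted p of 0.0679 or more), and the libraries share their depth and their cell make-up, so these likenesses are descriptions.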

How the data were processed

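RNA of sorted Flk2- Lin-Sca-1+Kit+ cells was polyA-enriched and sequenced as paired-end reads on the BGISEQ-500, per the labels' protocols. The submitters' processing notes name FastQC, Salmon, DESeq2, GRCm38 and mm10, with no settings. Per the file headers, the authors deposited Salmon's estimated counts (expected counts, not whole in 35.3% of values) and TPM per transcript. Of 116248 transcripts 115995 (99.8%) matched GENCODE M21; the 253 others (0.0379% to 0.0841% of reads) were not used.

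Gene values were sums of these counts, rounded to whole numbers, and were tested with edgeR 4.0.16 (filterByExpr with a minimum count of 10 and total of 15, TMM, quasi-likelihood, 1 mean per genotype over 12 libraries, Benjamini-Hochberg over all features) in R 4.3.3, for genes and for transcripts. CPM are TMM-scaled. TPM are as computed by the authors and were summed per gene. Transcript shares of genes with at least 10 reads were compared by exact permutation tests in scipy 1.17.1, for transcripts with a mean share of at least 10%. The p-values measure the spread between these libraries, each with its own mouse number in the labels. Alternatives were DESeq2 1.42.0, limma-voom (limma 3.58.1), relative log expression factors, 2 other filters, a transcript length offset, a replicate block, a fit of only the 2 groups at issue, Y-linked genes as a covariate, immunoglobulin genes left out, 3 libraries left out (Wild-type 1, Mdmx-Tg 2, Mdmx-Tg/Pu.1-URE-/- 3) and each library left out in turn. Applying them to the gene lists and Rapsn was added after seeing the data.

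The ETS genes, the 12 gene lists and the libraries left out were chosen with earlier results of these data known. Named by rule are the 10 ETS genes and the protein-coding genes within 100 kb of Spi1. So are the 5 genes most like each of Spi1, Erg and Ets1 (mean log2 CPM of at least 2, with predicted, immunoglobulin and Y-linked genes aside). Of a list the rule names at most 4 genes, smallest adjusted p first. Outside this rule the sorting marker genes, ETS family genes without a read, and genes shared or not shared between lists were also named. Lck, Cd3d, Klrb1c, Trac and Cd3e were added after their values were seen.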

Additional observations from a re-analysis of the deposited data

How the results depend on the processing

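The rise of Ets1 with element loss was called under all 22 alternatives (log2 2.93 to 3.58). Elsewhere the counts of called ETS genes moved, and the cause was not tested. In Pu.1-URE-/- against Wild-type 1 was called, with 2 by DESeq2, which called 12.3% of all genes there. The count was 0 with the replicate block, with the 3 libraries left out, with limma-voom or with the Y-linked covariate. In the double mutant against Wild-type 1 was called, with 3 by DESeq2 (10.2% of all genes) and 0 under the same 4 settings. DESeq2 called 1 in Mdmx-Tg against Wild-type and 1 in the double mutant against Mdmx-Tg, where edgeR called 0. Leaving out 1 library gave 0 to 1 in the first 2 of these comparisons and 1 to 2 for element loss. For transcripts of Spi1, Erg and Ets1, DESeq2 called 2 in Pu.1-URE-/- against Wild-type, in the double mutant against Mdmx-Tg and in the double mutant against Wild-type; CPM over 1 in 3 libraries gave 1 in the first and last of these. In the double mutant against Mdmx-Tg no low-count filter, the replicate block and the 3 libraries left out gave 0 in place of 1, and for element loss the last 2 gave 1 and 0 in place of 2. Leaving out 1 library gave 0 to 1 transcripts in the double mutant against Mdmx-Tg, 1 to 2 for element loss, and 0 to 3 changed shares. The numbers of the labels did not pair libraries: deviations of same-numbered libraries correlated at -0.153 to 0.086, and 4 of 12 libraries correlated best with their own number. With the replicate block Ets1 had an adjusted p of 0.0542 in Pu.1-URE-/- and 0.0709 in the double mutant against Wild-type, and with the Y-linked covariate 0.0554 and 0.234. Over all genes, calls for element loss numbered 1785, with 2985 by DESeq2, 1032 with the 3 libraries left out, 1178 with the Y-linked covariate and 952 to 1750 with 1 library left out. In Pu.1-URE-/- against Wild-type 707 genes were called, with 1852 by DESeq2 and 299 to 789 with 1 library left out; DESeq2 called 62.9% of its genes higher, edgeR 81.6%. In the double mutant 502 against Wild-type and 348 against Mdmx-Tg became 1530 and 1295 by DESeq2, 147 and 111 with the 3 libraries left out, 178 and 92 with the Y-linked covariate, and 162 to 565 and 136 to 347 with 1 library left out. DESeq2 called 330 genes in Mdmx-Tg against Wild-type, 329 in the double mutant against Pu.1-URE-/- and 194 for the interaction, where edgeR called 0, and 109 were called in the first without Mdmx-Tg 3. For transcripts, element loss gave 1170 calls, with 5172 by DESeq2, 701 with the 3 libraries left out and 549 to 1152 with 1 library left out; Pu.1-URE-/- against Wild-type gave 409, with 2591, 129 and 140 to 455; the double mutant against Wild-type gave 226, with 2412, 10 and 61 to 319, and 102 with the replicate block; the double mutant against Mdmx-Tg gave 213, with 3032, 17 and 123 to 322, and 114 with the block; Mdmx-Tg against Wild-type gave 10, with 1657, 5 and 1 to 121. The wide spread of Spi1 between libraries and the low counts of Spib limit what could be seen.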
